A study of Mus musculus with 168 samples.

Results

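The genes described here encode the enzymes of glutathione metabolism, the peroxiredoxins, the thioredoxin system, the superoxide dismutases and catalase. They were taken by symbol: the glutathione S-transferase genes of the alpha, kappa, mu, omega, pi, theta and zeta classes, Mgst1 to Mgst3, Gpx1 to Gpx8, Prdx1 to Prdx6, Txn1 and Txn2, Txnrd1 to Txnrd3, Sod1 to Sod3, Cat, Gclc, Gclm, Gss and Gsr. The rule found 52 genes among the 42405 symbols in the tables. They were followed in 150 single cells of aged mouse brain, each sequenced by Smart-seq2, which reads transcripts along their length in 1 cell at a time.

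The cells come from 3 sources. Striatum gave 13 cells (11 of a column-name series OGStr and 2 of OStr) and somatosensory cortex gave 4, all from mice of 25 months and sorted as astrocytes (GLAST positive, CD45 and O4 negative). The subventricular zone (SVZ), the stem cell layer along the lateral ventricle, gave 133 cells from mice of 23 months by the sample labels and of 22 months by the protocol, sorted as GLAST and CD133 positive and CD45 and O4 negative. Of these, 68 have names of a series ogp and 65 of a series ogp2. All animals were male C57BL/6 mice for which the labels name no allele and no agent, each sorted cell was picked by hand, and no cell is tied to an animal. Tissue of 4 old mice per replicate was pooled for the SVZ cells, and of 3 to 4 mice for the astrocytes, per the labels. Each region therefore counts as 1 sample: no difference was tested, every SD is the spread between cells, and age, gate and region cannot be told apart between astrocytes and SVZ cells.

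Levels are in TPM, a share of transcripts that corrects for transcript length and sums to 1000000 in each cell. Read depth per cell is unknown. The number of genes at 1 TPM or more had a median of 3636 in striatum, 3387.5 in cortex and 3479 in SVZ, where it ran between 1937 and 7986. The listed genes of 5 SVZ cells of the ogp series summed to only 66189 to 309864 TPM before they were rescaled to 1000000. All 10 astrocyte markers checked were present in each region, with a summed median of 19762 TPM in striatum, 23509 TPM in cortex and 19049 TPM in SVZ. Markers of microglia were at 0 in all striatal and cortical cells. In the SVZ, 1 cell carried 4758 TPM of microglia markers (Csf1r, C1qa, C1qb and Tyrobp), against 40.8 TPM in the next highest cell. The same cell also carried 12402.5 TPM of astrocyte markers, and what it is was not tested. The 52 genes took 0.271% of its TPM, the lowest value of any cell.

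Cells produce superoxide and peroxides as they respire. Superoxide dismutases turn superoxide into hydrogen peroxide, which catalase, the glutathione peroxidases and the peroxiredoxins then reduce. Glutathione, a tripeptide built by glutamate-cysteine ligase (Gclc and Gclm) and glutathione synthetase (Gss), feeds the peroxidases and the transferases, and glutathione reductase (Gsr) returns it to its reduced form with NADPH. Thioredoxins (Txn1 in the cytosol, Txn2 in mitochondria) and their reductases do the same for most peroxiredoxins. In the brain, astrocytes are known as the main holders of glutathione and pass its building blocks to neurons. Many of these genes are known targets of the transcription factor Nrf2, which binds the antioxidant response element.

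The core letters of that element, TGACNNNGC, were searched on both strands of promoter windows that reach 250 bases before to 50 bases after a transcript start (RefSeq, build GRCm38.p6). Of the 52 genes, 46 had a window and 8 of these held the letters, or 17.4%, beside 14.0% of all 27025 genes with a window. Sod3, Gclc, Gstt2, Gsr, Gsta4 and Prdx6 had no window. The 8 matches are shown because 5 of them (Gstm5, Prdx1, Sod1, Mgst1 and Gclm) lie at genes described in full below. Each line runs 5′ to 3′ on the strand of the gene, with the matched letters in capitals and 16 bases on either side. A match is only a match of letters and was not tested for binding.
Gstm5 (chr3:107895796-107895836, + strand): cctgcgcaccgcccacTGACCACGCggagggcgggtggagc
Prdx1 (chr4:116685450-116685490, + strand): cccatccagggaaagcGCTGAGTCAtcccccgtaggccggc
Sod1 (chr16:90220690-90220730, + strand): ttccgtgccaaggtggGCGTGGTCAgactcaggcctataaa
Mgst1 (chr6:138140455-138140495, + strand): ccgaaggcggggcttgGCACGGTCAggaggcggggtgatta
Gclm (chr3:122245407-122245447, + strand): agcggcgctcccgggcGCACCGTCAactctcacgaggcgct
Gstm7 (chr3:107931719-107931759, - strand): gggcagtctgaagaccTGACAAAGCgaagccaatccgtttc
Txnrd1 (chr10:82859098-82859138, + strand): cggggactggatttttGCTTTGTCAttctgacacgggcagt
Gsta3 (chr1:21240448-21240488, + strand): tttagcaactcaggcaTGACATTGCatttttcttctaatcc
Gstm5, Gstm7 and Gsta3 carry the letters on the strand of the gene and the other 5 on the opposite strand, so that these read GCNNNGTCA. These 8 genes did not share a level: Gstm5 averaged 2655 TPM in SVZ cells, Txnrd1 38.7 TPM and Gsta3 3.53 TPM.

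The 52 genes together were a sizeable part of each cell's transcripts. They took 2.27% ± 0.316 of TPM in striatal cells, 1.71% ± 0.228 in cortical cells and 1.78% ± 0.624 in SVZ cells (mean ± SD between 13, 4 and 133 cells). The ranges overlapped: 1.74% to 2.83% in striatum, 1.46% to 2.01% in cortex and 0.271% to 3.80% in SVZ. Most of the sum came from few genes, since the 4 highest made 73.4% of it in striatum (Prdx6, Gstm5, Gstm1 and Prdx1) and 74.9% in cortex (Gstm1, Prdx6, Gstm5 and Sod1), while the leading 4 in SVZ were again Prdx6, Gstm1, Gstm5 and Prdx1. A cell had a median of 19 of the 52 genes at 1 TPM or more in striatum, 14.5 in cortex and 20 in SVZ. In all, 45 genes reached 1 TPM in some cell, Gstm2 was above 0 but never reached it, and Gpx2, Gpx5, Gpx6, Gsta2, Gstp3 and Gstt4 were listed at 0 in every cell.

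**Figure D1:**
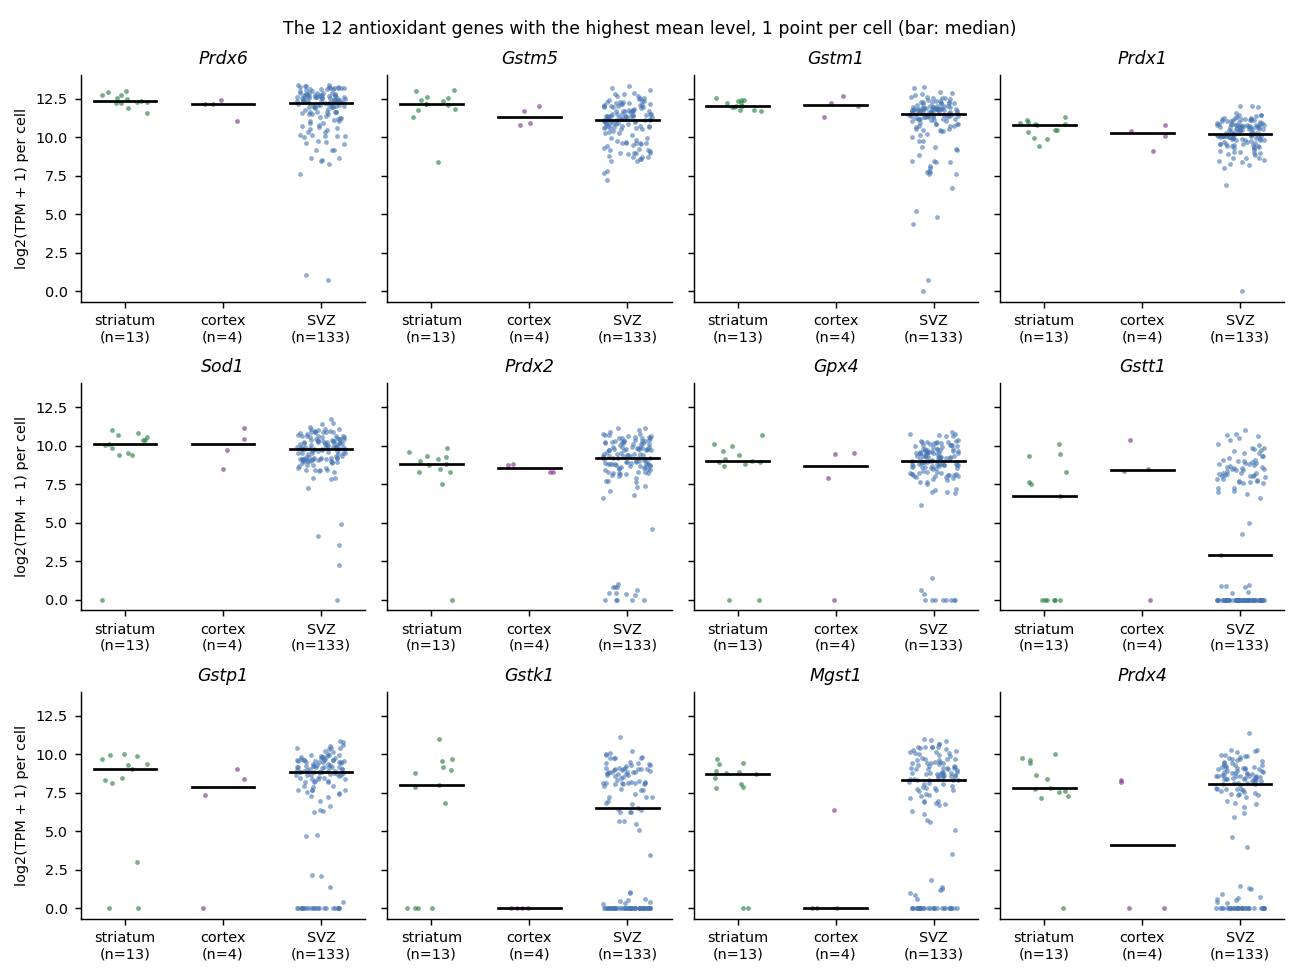
Level of the 12 genes with the highest mean in any region, as log2(TPM + 1), 1 point per cell and a bar at the median, in striatum (13 cells), cortex (4 cells) and SVZ (133 cells). Prdx6, Gstm5 and Gstm1 stand near the top of the axis in nearly all cells, whereas Gstt1, Gstk1 and Prdx4 split into cells at 0 and cells at high levels, and Gstk1 is at 0 in all 4 cortical cells.

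By family, the 22 glutathione S-transferase genes and the 6 peroxiredoxin genes dominated. The transferases (other than the microsomal ones) summed to 11111 ± 2203 TPM in striatum, 8390 ± 2219 TPM in cortex and 7097 ± 3612 TPM in SVZ. The peroxiredoxins summed to 8451 ± 1494 TPM in striatum, 6315 ± 918 TPM in cortex and 7485 ± 3198 TPM in SVZ. Against SVZ, each difference of means was smaller than the SD between SVZ cells, apart from that of the transferases in striatum. Between striatum and cortex, the differences of both families were larger than the SD between cells of either region. The 3 superoxide dismutase genes followed at 1235 TPM in striatum, 1454 TPM in cortex and 1106 TPM in SVZ, and the 8 glutathione peroxidase genes at 800 TPM, 431 TPM and 774 TPM in the same order.

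Among the transferases, 2 genes of the mu class carried most of the sum. The mu genes lie side by side on chromosome 3 (GENCODE on GRCm38): Gstm5 at chr3:107895821-107898686, Gstm7 at chr3:107926334-107931817, Gstm6 at chr3:107938847-107943749, Gstm3 at chr3:107963696-107969283, Gstm2 at chr3:107981702-107986453, Gstm1 at chr3:108012255-108017973 and Gstm4 at chr3:108040408-108044894. Levels differed widely along this row. Gstm1, which conjugates glutathione to electrophiles, averaged 4501 ± 897 TPM in striatum, 4504 ± 1628 TPM in cortex and 2978 ± 1962 TPM in SVZ. Gstm5 averaged 4917 ± 2232 TPM in striatum, 2839 ± 1147 TPM in cortex and 2655 ± 2011 TPM in SVZ. The other 5 mu genes stayed at means of 28.7 TPM or less in every region, and Gstm2 did not reach 1 TPM in any cell.

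Gstm1 and Gstm5 were found in almost all cells. Gstm1 ran from 3403 to 6136 TPM with a median of 4137 TPM in striatum, and was 2612, 6555, 4704 and 4143 TPM in the 4 cortical cells. In SVZ it ran from 0 to 9743 TPM with a median of 2955 TPM, and 131 of 133 cells (98.5%, exact Clopper-Pearson 95% interval 94.7% to 99.8%) had 1 TPM or more. Intervals here and below cover counting error only. Gstm5 ran from 344 to 8729 TPM with a median of 4666 TPM in striatum, was 4171, 3420, 1952 and 1815 TPM in the cortical cells, and ran from 146 to 10308 TPM with a median of 2263 TPM in SVZ, where it was present in all 133 cells. The lowest striatal value belonged to a cell of the OStr series, whose other cell had 3717 TPM. The regions overlapped for both genes. Part of the transcript is shared with other loci: 23.1% of the 50-base words of the Gstm1 transcript and 14.4% of those of Gstm5 occur in another gene, mostly Gstm2-ps1 and 4933431E20Rik, so reads could have been divided.

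The other transferases were lower and patchier. Gstp1, the pi class enzyme, averaged 511 TPM in striatum, 261 TPM in cortex and 480 TPM in SVZ and was present in most SVZ cells (95% interval 74.4% to 88.1%). Its transcript shares 62.3% of its 50-base words with Gstp2, which was listed at 0 in striatum and cortex and averaged 0.206 TPM in SVZ. Gstk1, a mitochondrial and peroxisomal transferase, averaged 449 ± 576 TPM in striatum and 252 ± 338 TPM in SVZ and was listed at 0 in all 4 cortical cells. Gstt1, of the theta class, averaged 252 ± 354 TPM in striatum, 513 ± 589 TPM in cortex and 256 ± 402 TPM in SVZ, and its cortical values were 0, 329, 361 and 1361 TPM. Its neighbour Gstt3 averaged 79.8 TPM in striatum and 113 TPM in SVZ and was listed at 0 in cortex. For Gstk1, Gstt1 and Gstt3 the SD was above the mean in every region with a value, and many cells were at 0.

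Gstz1 had its highest mean in striatum and Gsta4 in SVZ. Gstz1, which also works as maleylacetoacetate isomerase in tyrosine breakdown, averaged 222 ± 246 TPM in striatum, 152 ± 178 TPM in cortex and 80.5 ± 128 TPM in SVZ. It was present in 9 of 13 striatal cells (69.2%, 95% interval 38.6% to 90.9%), 2 of 4 cortical cells and 58 of 133 SVZ cells (43.6%). Gsta4, which conjugates the lipid peroxidation product hydroxynonenal, averaged 64.7 ± 110 TPM in striatum, 47.97 ± 95.9 TPM in cortex and 142 ± 231 TPM in SVZ. All 13 striatal values of Gstz1 and Gsta4 lie within the SVZ range. Gsto1, known as a dehydroascorbate reductase, averaged 61.3 TPM in striatum, 74.1 TPM in cortex (from 1 cell at 297 TPM) and 44.8 TPM in SVZ.

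Of the 3 microsomal enzymes, membrane proteins of the endoplasmic reticulum, Mgst1 was the one with a high level. It averaged 390 ± 247 TPM in striatum, 20.9 ± 41.7 TPM in cortex and 448 ± 486 TPM in SVZ. It was present in 11 of 13 striatal cells, 1 of 4 cortical cells (at 83.4 TPM) and 76.7% of SVZ cells (95% interval 68.6% to 83.6%). Thus 3 of 4 cortical cells were under 1 TPM of Mgst1, as were 2 of 13 striatal cells. Mgst3 averaged 8.64 TPM in striatum, 40.4 TPM in cortex and 18.5 TPM in SVZ, where 20 of 133 cells had it, and Mgst2 did not exceed a mean of 0.180 TPM.

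Prdx6, a peroxiredoxin that is known to use glutathione and that also acts on phospholipids, had the highest mean of the 52 genes in striatum and SVZ. It averaged 5639 ± 1509 TPM in striatum, 4181 ± 1421 TPM in cortex and 4705 ± 2888 TPM in SVZ, which ranked it 15th, 20th and 17th among all genes. Its range was 3117 to 8233 TPM (median 5235) in striatum and 0.680 to 10886 TPM (median 4796) in SVZ, and the 4 cortical cells had 2125, 4617, 4588 and 5395 TPM. The regions overlapped, and 132 of 133 SVZ cells were at 1 TPM or more. Prdx1, cytosolic, came next among peroxiredoxins with 1627 ± 554 TPM in striatum, 1216 ± 527 TPM in cortex and 1379 ± 781 TPM in SVZ, and was present in all but 1 of the SVZ cells.

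The remaining peroxiredoxins were less abundant. Prdx2, the second cytosolic form, averaged 471 ± 249 TPM in striatum, 378 ± 76.1 TPM in cortex and 709 ± 528 TPM in SVZ. Of the 50-base words of the Prdx2 transcript, 23.8% occur in another gene, and 29.7% of those of Prdx5 occur in its neighbour Trmt112. Prdx4, of the endoplasmic reticulum, averaged 408 TPM in striatum, 154 TPM in cortex and 326 TPM in SVZ. Prdx3, of mitochondria, averaged 209 TPM in striatum, 90.4 TPM in cortex (from 1 cell at 362 TPM) and 183 TPM in SVZ. Prdx5, found in mitochondria, peroxisomes and cytosol, had a higher mean in cortex than in striatum, with 96.1 ± 122 TPM in striatum, 295 ± 276 TPM in cortex and 182 ± 162 TPM in SVZ. It was present in 7 of 13 striatal cells and in all 4 cortical cells, where 1 cell at 708 TPM raised the mean above the other values of 191, 121 and 161 TPM.

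Sod1, the cytosolic copper and zinc enzyme, averaged 1138 ± 552 TPM in striatum, 1241 ± 852 TPM in cortex and 1009 ± 622 TPM in SVZ and was present in 12 of 13 striatal, 4 of 4 cortical and 132 of 133 SVZ cells. Of the 50-base words of its transcript, 23.1% also occur in Gm8566. Sod2, the mitochondrial manganese enzyme, was much lower, with 51.4 TPM in striatum, 105 TPM in cortex and 57.9 TPM in SVZ. Sod3, the secreted form, averaged 44.9 ± 67.7 TPM in striatum, 108 ± 81.03 TPM in cortex and 39.5 ± 69.2 TPM in SVZ, and was present in 7 of 13, 3 of 4 and 46 of 133 cells in that order. Cat, catalase of peroxisomes, was close in all regions at 102.1 TPM in striatum, 143 TPM in cortex and 112 TPM in SVZ.

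Gpx4, which reduces lipid hydroperoxides within membranes, was the main glutathione peroxidase. It averaged 634 ± 446 TPM in striatum, 423 ± 364 TPM in cortex and 599 ± 417 TPM in SVZ, though 61.7% of the 50-base words of its transcript also occur in the pseudogene Gpx4-ps2. Gpx1, the cytosolic form, averaged 51.6 ± 101 TPM in striatum and 75.8 ± 156 TPM in SVZ and was listed at 0 in cortex. It was found in 3 of 13 striatal cells and 43 of 133 SVZ cells (32.3%, 95% interval 24.5% to 40.98%). Gpx7 and Gpx8, of the endoplasmic reticulum, averaged 45.1 and 57.5 TPM in striatum and 49.1 and 48.1 TPM in SVZ, and the striatal Gpx8 mean came from 1 cell of the OStr series at 748 TPM. Gpx3, the secreted form, was present in 1 striatal cell at 160 TPM and in 2 of 133 SVZ cells.

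The genes that make and recycle glutathione were low beside the most abundant genes that use it (Gstm1, Gstm5, Prdx6 and Gpx4). In striatum and SVZ, Gclm had a higher mean than other users such as Gsta4 and Gpx1. Gclm, the modifier subunit of the first enzyme of synthesis, averaged 195 ± 161 TPM in striatum, 4.13 TPM in cortex and 172 ± 252 TPM in SVZ. Its 4 cortical values were 0, 0.140, 16.4 and 0 TPM, whereas 10 of 13 striatal cells and 83.5% of SVZ cells (95% interval 76.0% to 89.3%) were at 1 TPM or more. The catalytic subunit Gclc averaged 13.8 TPM in striatum and 10.1 TPM in SVZ, Gss 16.1 and 13.6 TPM, and Gsr 48.1 and 22.5 TPM. Gclc, Gss and Gsr were listed at 0 in all 4 cortical cells. Together these 4 genes summed to 273 ± 173 TPM in striatum, 4.13 ± 8.17 TPM in cortex and 218 ± 256 TPM in SVZ.

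In the thioredoxin system the mitochondrial form Txn2 had a higher mean than the cytosolic form Txn1 in each region. By median, Txn2 was above Txn1 in cortex and SVZ but not in striatum (80.6 TPM for Txn2, 89.6 TPM for Txn1). In the ribosome-rich SVZ cells described below, Txn1 had the higher mean (382 TPM, against 300 TPM for Txn2). Txn2 averaged 199 TPM in striatum, 122 TPM in cortex and 281 TPM in SVZ, and Txn1 averaged 94.7 TPM, 82.4 TPM (from 1 cell at 330 TPM) and 150 TPM in the same order. Txnrd1, the cytosolic reductase, averaged 25.2 TPM in striatum and 38.7 TPM in SVZ and was listed at 0 in cortex. Txnrd2, the mitochondrial reductase, averaged 54.4 TPM in striatum, 51.1 TPM in cortex and 19.0 TPM in SVZ. The cortical mean of Txnrd2 came from 1 cell at 204 TPM and the striatal mean from 3 cells at 76.0, 142 and 490 TPM.

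**Figure D2:**
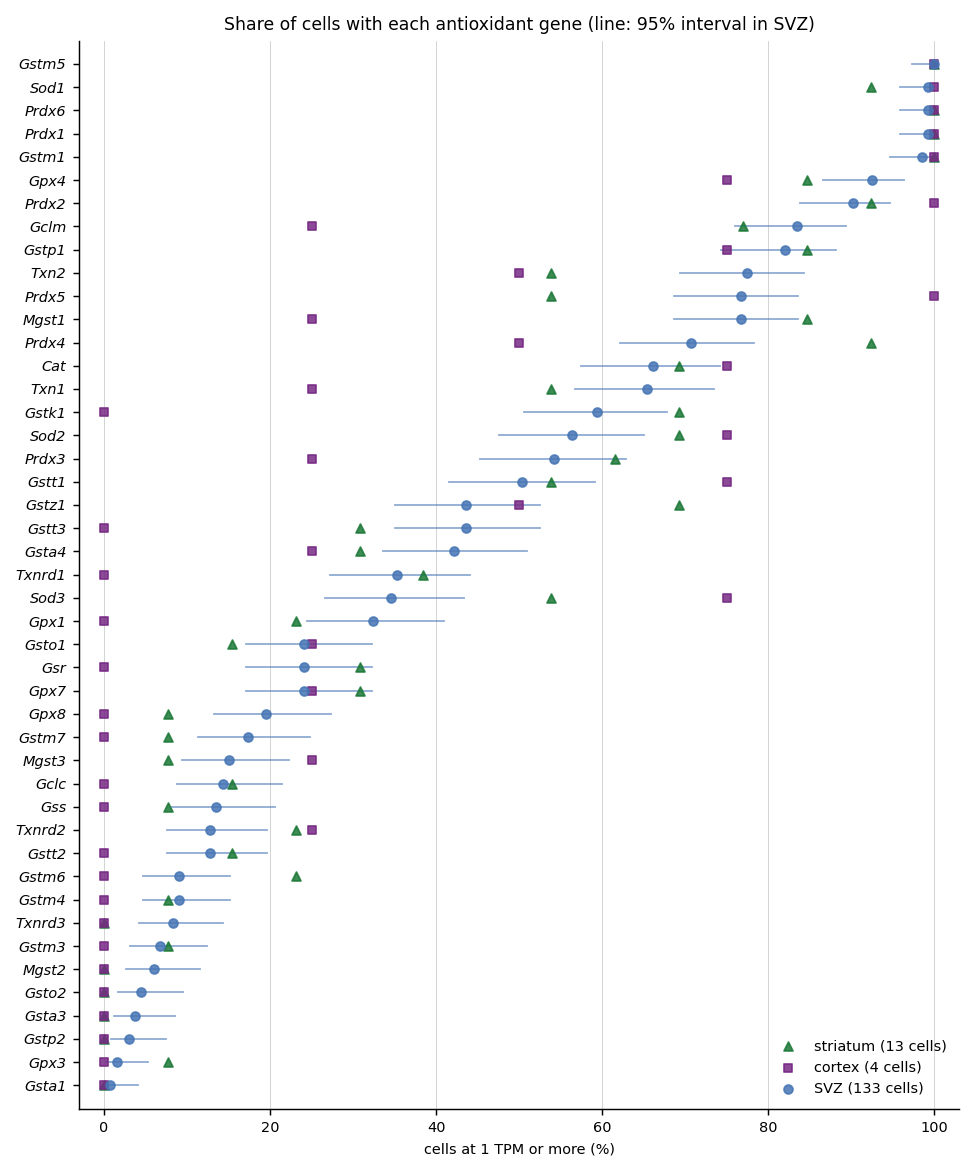
Share of cells at 1 TPM or more (percent) for the 45 genes that reached it, in striatum (triangles, 13 cells), cortex (squares, 4 cells) and SVZ (circles with the exact 95% interval, 133 cells). Gstm5, Sod1, Prdx6, Prdx1 and Gstm1 are near 100% throughout, while Gclm, Mgst1 and Gstk1 show cortex squares at 25%, 25% and 0%, left of the striatum and SVZ symbols.

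Most of these genes were within 2-fold between striatal astrocytes and SVZ cells. Each difference below is the log2 ratio of 2 group means, with 1 TPM added to each mean, for genes with a mean of 10 TPM or more in either group, and understates the change of low genes. Of the 52 genes, 38 entered, 4 were 2-fold or more higher in striatum (10.5%) and 4 were 2-fold or more lower (10.5%). Over all 9080 genes that entered, 12.3% were 2-fold higher and 28.3% were 2-fold lower, so the count of higher genes was near the background and that of lower genes below it. The median difference was 0.09 beside -0.26 over all genes. Gpx3 (2.23), Txnrd2 (1.47), Gstz1 (1.46) and Gsr (1.06) were higher, and Gstm6 (-1.55), Gstt2 (-1.53), Gsta4 (-1.12) and Mgst3 (-1.02) were lower. All 8 except Gstz1 and Gsta4 had means under 60 TPM in both groups. Gpx3 came from 1 striatal cell. The 11 OGStr cells alone averaged 19.8 TPM of Txnrd2 and 36.2 TPM of Gsr, against 19.0 and 22.5 TPM in SVZ cells. Of the 2 OStr cells, 1 had 490 TPM of Txnrd2 and 1 had 228 TPM of Gsr. Gstz1 went the other way, with 263 TPM in OGStr cells and 0 in OStr cells. Gstm6 stood at 0.35 instead when logarithms were averaged over cells, and 3 of 13 striatal cells and 12 of 133 SVZ cells had it.

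The mean TPM of the abundant genes in striatum was within 2-fold of that in SVZ, with differences of 0.89 for Gstm5, 0.60 for Gstm1, 0.26 for Prdx6 and 0.24 for Prdx1, and -0.59 for Prdx2. That did not hold in every setting for the mu class genes. With logarithms averaged over cells, Gstm1 was at 1.24 and Gstm5 at 1.09, and against the ogp cells alone Gstm5 was at 1.19. Set against the 101 SVZ cells of low ribosomal share alone, which are described below, the same differences were 0.65 for Gstm5, 0.36 for Gstm1 and 0.08 for Prdx6. The 11 OGStr cells and the 2 OStr cells had like levels of Gstm1 (5074 TPM in OStr, 4397 TPM in OGStr) and Prdx6 (5850 TPM in OStr, 5601 TPM in OGStr), but Gstz1 averaged 263 TPM in OGStr and was at 0 in both OStr cells.

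Many genes, of these families and in general, were listed at 0 in the 4 cortical astrocytes. Of the 37 genes that entered against SVZ, 3 were 2-fold or more higher in cortex and 19 were lower (51.4%), beside 20.7% higher and 43.4% lower over all 8940 genes. The median difference was -1.01 and that over all genes -0.49. Of the 19 lower genes, 12 were listed at 0 in all 4 cells (Gclc, Gpx1, Gpx8, Gsr, Gss, Gstk1, Gstm4, Gstm6, Gstm7, Gstt2, Gstt3 and Txnrd1), so no fold can be given. They are 32.4% of the genes that entered, beside 27.3% of all 8940 genes listed at 0 in cortex. A gene found in 0 of 4 cells may still be present in up to 60.2% of such cells (95% interval). With genes of 10 TPM or more in both groups the 23 genes left had a median of 0.10 beside 0.33 over all genes. Of these 23, 5 were 2-fold or more lower, and Mgst3, Sod3 and Txnrd2 were still 2-fold or more higher. The shares over all genes in this setting are not given, so nothing particular is read from these counts. Mgst1 (-4.36) and Gclm (-5.08) were lower without being listed at 0.

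The genes that were higher in cortex rested on few cells. Sod3 (1.42) was at 114, 120, 197 and 0 TPM. Txnrd2 (1.38) and Mgst3 (1.09) each came from 1 cell, and without that cell their differences were -4.08 and -4.29. By mean TPM, Gstm1 (0.60), Gstm5 (0.10), Prdx6 (-0.17) and Prdx1 (-0.18) were within 2-fold of SVZ, but Gstm1 was at 1.19 with logarithms averaged over cells. The comparisons of striatum and of cortex share the SVZ cells and are not independent of each other.

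Between the astrocytes of the 2 regions, 36 genes entered, of which 16 were 2-fold or more higher in striatum than in cortex (44.4%) and 5 were lower (13.9%). Over all 8276 genes, 38.3% were higher and 28.9% were lower, and the median was 0.75 for the antioxidant genes beside 0.10 for all. In 11 of the 16 higher genes cortex was listed at 0. Of the others, Gclm averaged 195 TPM in striatum against 4.13 TPM in cortex (5.26), and Mgst1 averaged 390 TPM in striatum against 20.9 TPM in cortex (4.16). The 5 lower genes were Mgst3, Prdx5, Sod3, Gstt1 and Sod2, with differences between -2.10 and -1.01. Without the cortical cell at 1361 TPM, Gstt1 was at 0.13. Gstm1 was at -0.00077 with nearly the same mean in both regions, while Gstm5 was at 0.79.

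**Figure D3:**
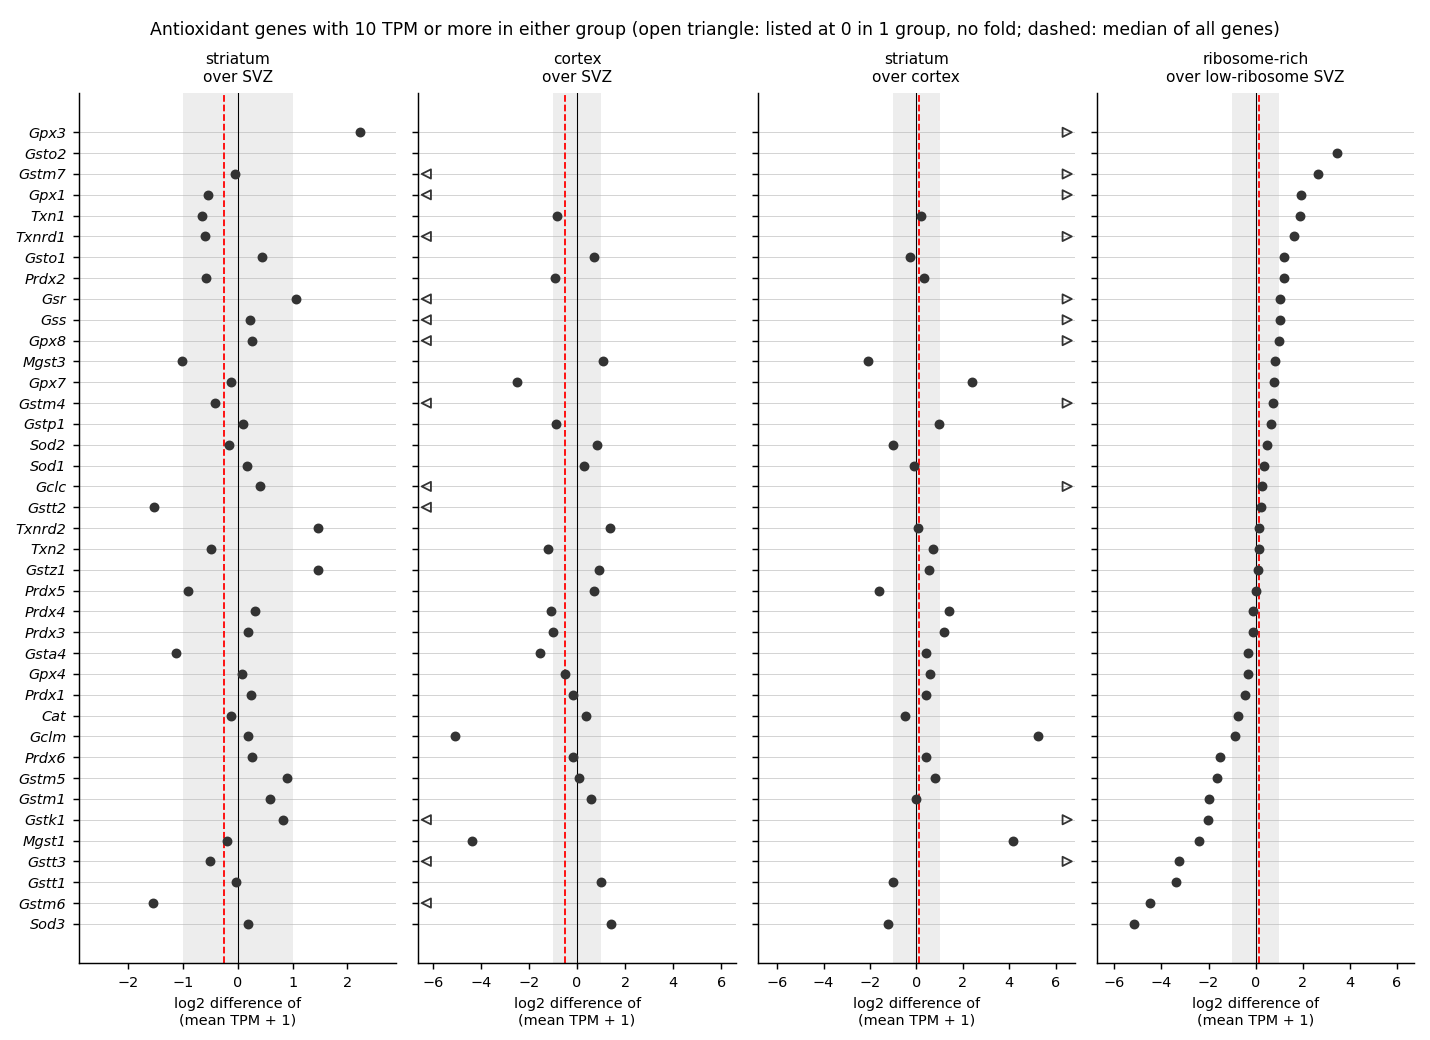
Difference of each antioxidant gene on the log2(mean TPM + 1) scale for striatum over SVZ, cortex over SVZ, striatum over cortex and ribosome-rich over low-ribosome SVZ cells. The grey band marks less than 2-fold, the dashed line is the median of all genes, and open triangles at the edge are genes listed at 0 in cortex, with no fold. Points of the first panel lie mostly in the band, and those of the last reach from -5.18 to 3.45.

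SVZ cells differ in how much of their TPM comes from the 76 ribosomal protein genes, which are known to be high in growing and dividing cells. Cells were divided by that share into 101 low cells (under 3%), 11 intermediate cells (3% to under 6%) and 21 ribosome-rich cells (6% or more). These are ranges of a score and not cell types: 8 cells lay within 0.5 percentage points of the lower limit and 2 of the upper. Several other measures moved with the class, and their part in the results below was not tested. The median number of genes detected was 3217 in low, 4174 in intermediate and 6285 in rich cells. The summed median of the 10 astrocyte markers was 21408 TPM in low, 9645 TPM in intermediate and 1338 TPM in rich cells, and that of the 15 markers of activated or transit amplifying cells was 1.17, 124 and 1094 TPM. Of 12 cells with mitotic genes, 10 were rich and 2 intermediate.

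The share of TPM in the 52 genes was lower in ribosome-rich cells, and the 4 highest genes made a smaller part of it. It averaged 1.12% ± 0.425 in rich cells against 1.94% ± 0.509 in low cells (SD between 21 and 101 cells), and the ranges overlapped (0.633% to 2.20% in rich cells, 0.524% to 3.03% in low cells). The 4 highest genes made 48.05% of the sum in rich cells (Prdx6, Prdx2, Sod1 and Prdx1) and 69.4% in low cells (Prdx6, Gstm1, Gstm5 and Prdx1). A rich cell had a median of 25 of the genes at 1 TPM or more, against 18 in a low cell. Over all genes these medians were 6285 and 3217, so nothing particular to the 52 genes is read from the count. By family, the 22 transferases summed to 3083 ± 1997 TPM in rich cells against 8129 ± 3118 TPM in low cells, and the 2 thioredoxins to 682 ± 249 TPM in rich cells against 378 ± 316 TPM in low cells. The glutathione peroxidases were close, at 838 ± 440 TPM in rich cells and 768 ± 514 TPM in low cells.

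Of the 38 genes that entered, 9 were 2-fold or more higher in rich cells (23.7%) and 9 were lower (23.7%). Over all 9283 genes, 26.8% were higher and 23% were lower, so the counts were near the background in both directions. The median was 0.13 beside 0.16 over all genes. When logarithms were averaged over cells, 20 genes were higher and 8 lower, and the median was 1.15 beside 1.32 over all genes. The shares over all genes above are for mean TPM and are no background for these 2 counts.

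The lower genes were 6 transferases of the mu, theta and kappa classes (Gstm1, Gstm5, Gstm6, Gstt1, Gstt3 and Gstk1), Mgst1, Prdx6 and Sod3. Of these, Gstm6 was present in 12 of 101 low cells and 0 of 21 rich cells. With logarithms averaged over cells Gstm6 was at -0.69, less than 2-fold. Gstm1 ranged from 19.3 to 3648 TPM with a median of 353 TPM in rich cells, against 0.670 to 9743 TPM with a median of 3396 TPM in low cells, a difference of -1.99. Gstm5 had a median of 751 TPM (225 to 2497) in rich cells against 2672 TPM (209 to 10308) in low cells, a difference of -1.64. Prdx6 had a median of 1075 TPM (193 to 8652) in rich cells against 5317 TPM (0.680 to 10886) in low cells, a difference of -1.51. The ranges overlapped for all 3 genes, which were at 1 TPM or more in every rich cell. In a comparison chosen after seeing the data, among the 7 rich and 50 low cells in the range of genes detected that both classes cover (3225 to 5145), the differences were smaller than 2-fold: -0.69 for Gstm1, -0.81 for Gstm5 and -0.68 for Prdx6.

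The same genes were lower in rich cells of each name series. In the ogp series Gstm1 averaged 598.5 TPM in 15 rich cells against 3179 TPM in 46 low cells, and in the ogp2 series 1602 TPM in 6 rich cells against 3782 TPM in 55 low cells. Gstm5 averaged 911 TPM in rich against 2666 TPM in low cells of ogp, and 1223 TPM in rich against 3504 TPM in low cells of ogp2. Prdx6 averaged 1283 TPM in rich against 4648 TPM in low cells of ogp, and 3338 TPM in rich against 5900 TPM in low cells of ogp2, the last a difference of -0.82. Without the mitotic cells, the differences were -1.33 for Gstm1, -1.20 for Gstm5 and -0.91 for Prdx6. The 12 mitotic cells averaged 404.5 TPM of Gstm1, 577 TPM of Gstm5 and 814 TPM of Prdx6.

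Mgst1 averaged 104 ± 138 TPM in rich cells against 551 ± 509 TPM in low cells, a difference of -2.39, and was present in 13 of 21 rich cells (61.9%, 95% interval 38.4% to 81.9%) and 84 of 101 low cells (83.2%, 95% interval 74.4% to 89.9%). The difference was -1.77 in the shared range of genes detected. The genes Gstt1 and Gstt3 were present in 3 of 21 rich cells each, against 59 and 50 of 101 low cells, with means of 28.7 and 13.6 TPM in rich cells against 305 and 140 TPM in low cells. Gstk1 averaged 73.1 TPM in rich cells against 301 TPM in low cells (-2.03). Sod3 was at 1 TPM or more in 1 of 15 rich ogp cells and in 0 of 6 rich ogp2 cells, with a mean of 0.397 TPM in rich cells against 49.7 TPM in low cells. Gstt1, Gstt3 and Sod3 were thus under 1 TPM in most rich cells. Sod3 was at 1 TPM or more in 44 of 101 low cells. Gstt3 and Sod3 were therefore under 1 TPM in most low cells too.

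The higher genes were Prdx2, Gpx1, Txn1, Txnrd1, Gsr, Gss, Gstm7, Gsto1 and Gsto2. Prdx2 ranged from 498 to 2267 TPM with a median of 1269 TPM in rich cells, against 0 to 2087 TPM with a median of 458 TPM in low cells, a difference of 1.22. It was present in 21 of 21 rich cells and 88 of 101 low cells (87.1%), and averaged 1406 TPM in rich against 529 TPM in low cells of ogp and 949 TPM in rich against 565 TPM in low cells of ogp2. Txn1 had a median of 373 TPM (0 to 694) in rich cells against 101 TPM (0 to 413) in low cells, a difference of 1.88. The ranges overlapped, but the rich medians lay well above the low ones. In the shared range of genes detected the differences were 1.14 for Prdx2 and 1.45 for Txn1. In the middle 50% of cells by genes detected, which holds 2 rich and 62 low cells, Prdx2 was at 1.01, but Txn1 was at -0.92 and Gss at -4.26.

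Gpx1 averaged 181 ± 232 TPM in rich cells against 47.4 ± 121 TPM in low cells, a difference of 1.91, and was present in 18 of 21 rich cells (85.7%, 95% interval 63.7% to 97.0%) against 19 of 101 low cells (18.8%, 95% interval 11.7% to 27.8%). It was 2.11 in ogp, 1.98 in ogp2 and 1.84 in the shared range of genes detected. Gstm7, a mu class gene, averaged 86.8 ± 153 TPM in rich cells against 12.9 ± 63.8 TPM in low cells (2.66). It was present in 11 of 21 rich cells and 9 of 101 low cells. Txnrd1 (1.62), Gsr (1.03), Gss (1.03), Gsto1 (1.22) and Gsto2 (3.45) were less steady. Within ogp2 alone Txnrd1 was at -0.30 and Gsr at -0.66, and in the shared range of genes detected Txnrd1 was at -0.22, Gsr at -0.98 and Gsto1 at -0.35. Gss was at 0.24 in ogp and 2.07 in ogp2. Gsto2 was present in 2 of 21 rich cells and 1 of 101 low cells, with a mean of 12.5 TPM in rich cells against 0.235 TPM in low cells, and did not enter in ogp.

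**Figure D4:**
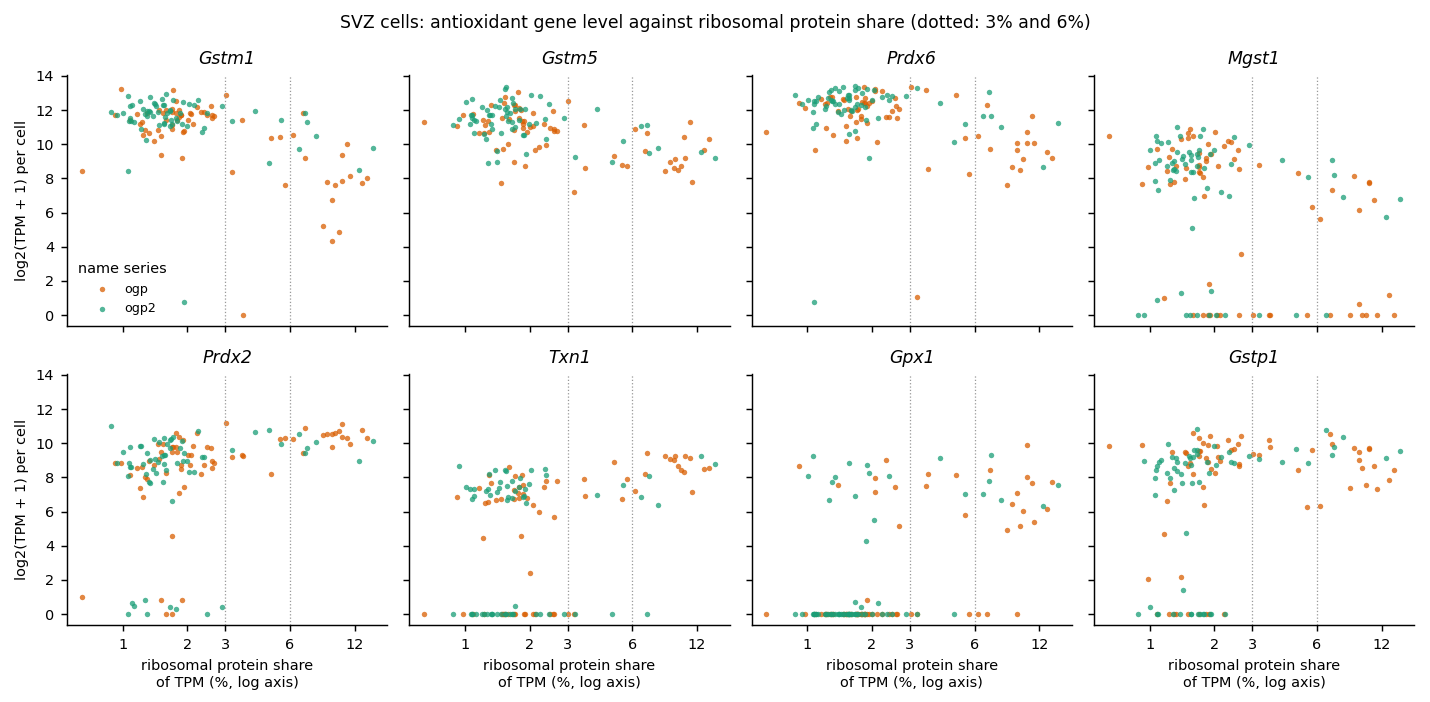
Level of 8 genes in the 133 SVZ cells, as log2(TPM + 1), against the ribosomal protein share of TPM (percent, log axis), 1 point per cell, coloured by name series, with dotted lines at 3% and 6%. Gstm1, Gstm5 and Prdx6 form a dense high cloud left of 3% and spread downward to the right, Prdx2 and Txn1 lie higher to the right of 6%, and Gpx1 is at 0 in most cells left of 3%.

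Across the 133 SVZ cells, the summed TPM of the 52 genes had a Spearman rho of -0.37 with the ribosomal protein share (-0.43 in ogp, -0.20 in ogp2). Within the 101 low cells it was -0.00082. These correlations describe cells that share pools of animals, and TPM shares of a cell depend on each other. Genes detected had a rho of 0.64 with the ribosomal share and -0.46 with the summed TPM of the 52 genes. The summed astrocyte markers had a rho of 0.57 with the 52 genes (0.31 in low cells) and of -0.73 with the ribosomal share.

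Of the 19 genes present in at least 50% of SVZ cells, 10 had a rho above 0 and 9 below, with a median of 0.02 beside 0.06 over all 2104 such genes. Of those 2104 genes, 1264 had a rho above 0 and 840 below. Of the 27 genes found in fewer cells, 21 had a rho above 0 and 6 below, with a median of 0.13. The split over all genes found in fewer cells is not given, so nothing particular to these 27 is read from it. Among the 19 genes, the lowest were Gstm5 (-0.43), Gstm1 (-0.39), Mgst1 (-0.37), Prdx1 (-0.33) and Prdx6 (-0.29). The highest of the 19 were Prdx2 (0.48), Txn1 (0.37) and Gstp1 (0.34). The sign was the same in both name series for 15 of the 19. Within the low cells, Gstp1 (0.26) and Prdx1 (-0.25) stood farthest from 0, while Gstm1 was at 0.03 and Prdx6 at 0.08. Gstm5, which had the lowest value over all cells, was at -0.08 among low cells.

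**Figure D5:**
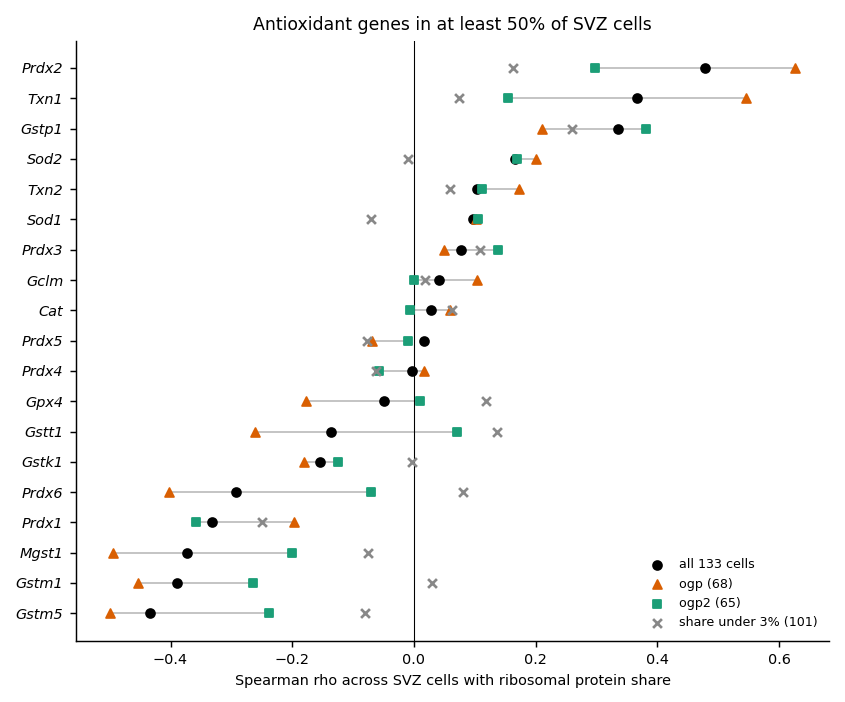
Spearman rho across SVZ cells between the TPM of each gene and the ribosomal protein share, for the 19 genes in at least 50% of SVZ cells, in all 133 cells (circles), the ogp series (triangles), the ogp2 series (squares) and cells with a share under 3% (crosses). Values run from -0.43 for Gstm5 to 0.48 for Prdx2 in all cells, and most crosses lie nearer to 0.

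Among SVZ cells, rho between pairs of the antioxidant genes was mostly small. Of 171 pairs of the 19 genes, 6 had a rho above 0.3 and 1 a rho below -0.3, and the median was 0.04. The same counts for pairs of all genes are not given, so nothing particular to these genes is read from them. The highest were Gstm1 with Prdx6 (0.58), Gstm1 with Gstm5 (0.56) and Gstm5 with Prdx6 (0.41). The first 2 pairs had a rho of 0.33 and 0.31 within the low cells. Prdx2 and Mgst1 went apart most, at -0.39 (-0.38 in ogp, -0.35 in ogp2).

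Other genes of the same pathways, from lists chosen with earlier results of these data known, were read beside them for rich over low cells. Over all 9283 genes, 26.8% were 2-fold or more higher and 23% lower. Of 16 genes of glutathione supply, turnover and export that entered, 10 were 2-fold or more lower in rich cells and 1 was higher, with a median of -1.68. They include Slc1a2 and Slc1a3, glutamate carriers that are also astrocyte markers. A further gene of the lists read here, Aldh1l1, is an astrocyte marker too. Oplah, a supply gene which recycles oxoproline to glutamate, was at 9.80 TPM in rich cells against 76.2 TPM in low cells (-2.84). Glul, glutamine synthetase, averaged 389 TPM in rich cells against 2085 TPM in low cells (-2.42), while Chac1, which degrades glutathione, reached 1 TPM in 2 of 21 rich cells and in 0 of 101 low cells. Of 15 genes of NADPH supply, 2 were higher and 4 lower (median -0.0087), near or below the shares over all genes, and Me1, the cytosolic malic enzyme, averaged 9.98 TPM in rich cells against 81.1 TPM in low cells (-2.90). Of 23 other thiol and redox genes, 8 were higher and 4 lower (median 0.70). Selenop, the selenium carrier, averaged 175 TPM in rich cells against 1701 TPM in low cells (-3.27), and Sephs2, which makes selenophosphate for selenoprotein synthesis, averaged 37.7 TPM in rich cells against 6.46 TPM in low cells (2.37). Of 9 genes of Nrf2 regulation and its targets, 2 were higher and 3 lower (median -0.28), also near the shares over all genes. Sqstm1, a Nrf2 target that works in autophagy, averaged 188 TPM in rich cells against 616 TPM in low cells (-1.71).

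The same lists were read between regions. In striatum over SVZ their medians were between -0.18 and 0.06 (all genes -0.26), with 1 of 9 Nrf2 genes, 1 of 16 supply genes, 0 of 14 NADPH genes and 3 of 23 thiol genes higher, and 2, 3, 1 and 4 lower. Over all 9080 genes 12.3% were higher and 28.3% lower. Nqo1, a classical Nrf2 target that reduces quinones, averaged 95.1 TPM in striatum against 20.6 TPM in SVZ (2.16), while Hmox2, a heme oxygenase, averaged 7.65 TPM in striatum against 70.3 TPM in SVZ (-3.04). In cortex over SVZ the medians were between -0.43 and 0.49 (all genes -0.49), with 3 of 9, 4 of 16, 3 of 15 and 5 of 24 genes higher in the same order, and 3, 4, 6 and 7 lower. Over all 8940 genes 20.7% were higher and 43.4% lower. Hmox1, the inducible heme oxygenase, averaged 133 TPM in cortex against 16.9 TPM in SVZ (2.90), from 2 of 4 cortical cells and 12 of 133 SVZ cells, and Nqo1 and Hmox2 were listed at 0 in cortex. In striatum over cortex, 1 of 7, 4 of 16, 5 of 14 and 6 of 21 genes were higher and 2, 4, 5 and 5 lower, with medians between -0.75 and 0.10 (all genes 0.10), beside 38.3% higher and 28.9% lower over all 8276 genes. Nothing particular to a list is read from these counts. Nfe2l2, which encodes Nrf2, averaged 90.7 TPM in striatum against 351 TPM in cortex (-1.94).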

How the data were processed

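TPM values per gene and cell were deposited by the authors, made with STAR 2.4.0g1, RSEM 1.2.18 and mm10 per the submitters' processing notes. Strand use, filters and depth are not given in the sources used here, and TPM keeps no depth. Each of 150 cells was rescaled to 1000000 TPM (5 SVZ columns summed to less), and of identifiers with 1 symbol the highest on average was kept. The 18 population libraries were not analysed here. Python 3.11.15, numpy 2.4.6, pandas 2.3.3, scipy 1.17.1 and matplotlib 3.10.9 were used.

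The genes and lists were chosen with earlier results of these data known. Genes with a mean of 50 TPM or in 50% of the cells of a region are given in full, and of other lists up to 3 genes per comparison with the greatest difference and 20 TPM. Presence means 1 TPM or more, with exact Clopper-Pearson 95% intervals that cover counting error only. Mitotic cells had 3 or more of 10 mitotic genes at 10 TPM or more. No doublet caller was run on these hand-picked cells. No test was run, since each region is 1 sample. The difference step was tested on simulated data. Alternatives were the pseudocount, the average, the TPM floor, the scaling, the name series and sets of cells left out, and those limited by genes detected were added after seeing the data.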

Additional observations from a re-analysis of the deposited data

Results flagged for a closer look

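Comparisons that differ in direction between groups are given here, with no test of the difference. Gsr was higher in striatum than in SVZ (1.06 on the log2 scale) and lower in cortex than in SVZ (-4.56). In cortex it was listed at 0 in all 4 cells, so that the last value depends on the 1 TPM added to each mean. The 11 OGStr cells alone averaged 36.2 TPM of Gsr, against 22.5 TPM in SVZ cells. Mgst3 was lower in striatum (-1.02) and higher in cortex (1.09), from 1 cell each in striatum and cortex. For rich over low SVZ cells, Gpx7 was at 1.54 in the ogp series and at -1.14 in the ogp2 series, and Gstt2 was at -1.05 in ogp and at 1.51 in ogp2. Both genes were found in under 25% of SVZ cells.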

How the results depend on the processing

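Main values are counts of genes 2-fold apart or log2 medians, and the cause of each shift was not tested. Shares over all genes in these settings are not given, so the counts are not read as particular to these genes. With 10 TPM added to each mean, striatum over SVZ gave 2 higher and 1 lower genes (4 and 4 in the main setting) and striatum over cortex 3 lower (5). With logarithms averaged over cells, striatum over SVZ gave 2 lower, with Gstm6 at 0.35, cortex over SVZ 8 higher (3), and rich over low cells 20 higher (9) with a median of 1.15 (0.13). With no TPM floor, striatum over SVZ gave 8 lower. With 10 TPM or more in both groups, which leaves fewer genes, striatum over SVZ gave 1 lower, cortex over SVZ 5 lower (19) with a median of 0.10 (-1.01), and striatum over cortex 3 higher (16). Median-ratio scaling gave 2 lower genes for striatum over cortex.

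Leaving out each cortical cell in turn gave medians of -1.70 to -0.70 and 4 to 5 higher genes for cortex over SVZ, with Mgst3 between -4.29 and 1.49 and Txnrd2 between -4.08 and 1.79. For striatum over cortex it gave medians of 0.72 to 1.77 and 3 to 5 lower genes, with Gstt1 between -1.44 and 0.13. No paired analysis was possible because each region is 1 sample and no test was run.

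For rich over low cells, the ogp2 series alone turned Gsr to -0.66 and Txnrd1 to -0.30. Cells above a share of 2.22% against those below 1.54%, the ends of 3 equal groups, gave 4 lower genes (9). Settings limited by genes detected were chosen after seeing the data. In the middle 50% of cells by genes detected (2 rich and 62 low cells) the median was -0.79 with 16 lower, Gsr at -4.41, Gss at -4.26, Prdx6 at 0.079, Txn1 at -0.92 and Txnrd1 at -4.79. In the range of genes detected that both classes cover, Gsr was at -0.98, Gsto1 at -0.35 and Txnrd1 at -0.22. The rho of the summed genes with the ribosomal share (-0.37) was -0.00082 in low cells and 0.034 in the middle 50%. Single genes also changed sign, with Gstm1 at 0.030 and Gsto1 at -0.0019 in low cells, and Gstm1 at 0.050 and Txn1 at -0.15 in the middle 50%.

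Limits are the 4 cortical cells, the pooled animals with no animal named, the age and gate that differ with region, and the unknown read depth.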
